A study of Mus musculus with 54 samples.

Results

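Small and large intestine were compared in mice that had received 10 Gy of gamma radiation 3 to 8 h earlier. The comparison used the library of each tissue at 3, 4, 5, 6, 7 and 8 h, which made 6 libraries a side and 12 of the 54 libraries of the series. It took in every gene with a mean of at least 1 FPKM over the 6 libraries of either tissue, and 12266 of the 13611 genes in the table met that rule. Gm16907, just inside it, had a mean of 1.002 FPKM in the tissue with the higher level, and Cd300a, just outside, had 0.9993. FPKM divides a gene's fragments by its transcript length and by the mapped fragments of the library, so it is a level per length. The series followed messenger RNA after irradiation in both intestines, the thymus and the spleen of C57B6 animals and in NIH3T3, a mouse fibroblast line, and its title relates the dynamics of p53 to the radiation sensitivity of tissues. Both groups were C57B6 tissue treated with 10 Gy, and the labels name no other agent, allele, age or sex. The library of each tissue at 0 h was untreated. Whole tissue was ground, so epithelium, immune cells, muscle and nerves all entered the RNA, and the labels name no segment of either intestine.

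The epithelium of the small intestine is specialised for digestion and absorption: enterocytes carry digestive enzymes and transporters on a brush border and pack dietary fat into chylomicrons, and Paneth cells at the crypt base secrete antimicrobial peptides. The epithelium of the large intestine recovers salt and water, burns the short-chain fatty acids made by bacteria, and is covered by a thick mucus layer made by goblet cells. Radiation damages DNA in dividing crypt cells, which activates the transcription factor p53, and p53 then switches on genes for cell cycle arrest, for repair and for cell death.

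Values of single genes are given as the range and median of the 6 libraries. Differences are log2(FPKM + 1) of small minus large intestine with the standard error from limma, so positive numbers mean a higher level in small intestine. A gene was called at an adjusted p below 0.05 (limma, Benjamini-Hochberg over all 12266 genes). A stricter call also required the difference to exceed 2-fold (limma treat, adjusted p below 0.05). Whether each hour was a separate mouse is not stated in the labels, so these p-values measure the spread between the 6 libraries of a tissue.

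The libraries matched their tissue labels. Of 12 tested enterocyte markers 12 were higher in small intestine (10 of the 10 with a mean of at least 1 FPKM in both tissues), and 11 of 14 colonocyte markers were higher in large intestine (9 of 12). The median FPKM was between 8.39 and 8.87 in each of the 12 libraries, and the median standard deviation over the 6 libraries of a tissue was 0.19 on the log2 scale in both. The large intestine library at 7 h stood apart from the other 5. It held Hoxb13, a gene of the hindmost body, at 87.1 FPKM against at most 11.7 in the others, and Insl5, a hormone of colonic endocrine cells, at 158 against at most 0.996. The bile acid transporter Slc10a2 stood at 15.5 FPKM in it and at 107 to 276 in the others. Its summed level of 15 smooth muscle markers was the highest of the 6 (6966 FPKM) and that of 9 adipocyte markers the lowest (373). Without that library 8168 genes were called in place of 8364. Outside the comparison, the large intestine library at 2 h held small intestinal transcripts (Fabp1 at 10453 FPKM), the one at 1 h held Hoxb13 at 370.0, and the one at 0 h held the ileal gene Fabp6 at 160.3.

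**Figure D1:**
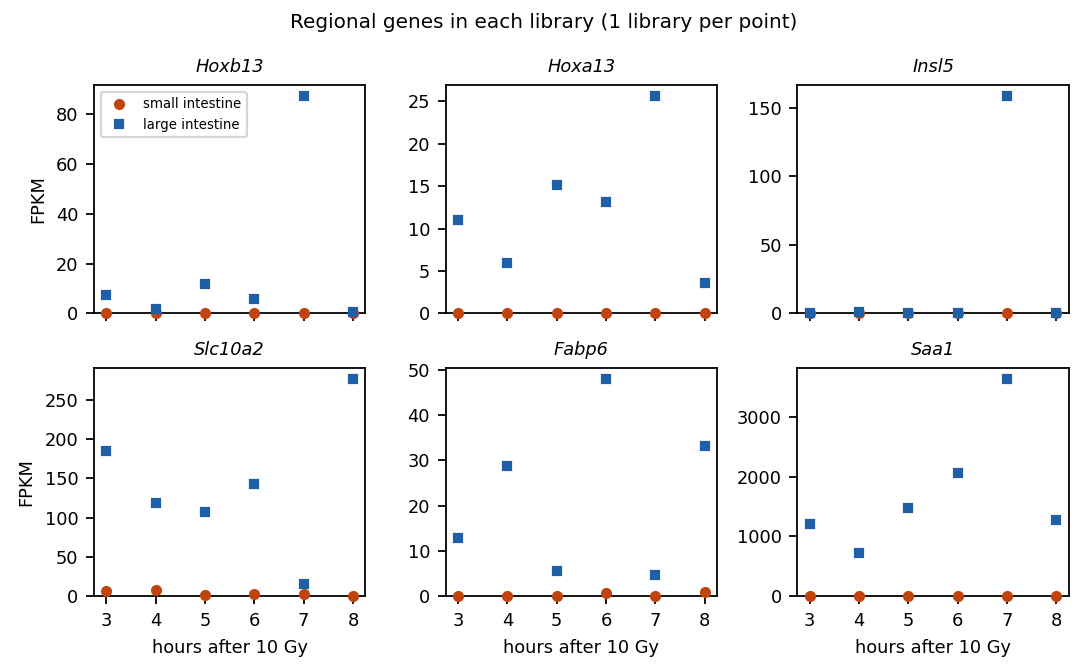
FPKM of 6 genes with a regional pattern (vertical axes, linear and starting at 0) against hours after 10 Gy, 1 point per library, circles for small intestine and squares for large intestine. The large intestine library at 7 h is the highest for Hoxb13, Hoxa13, Insl5 and Saa1 and the lowest for Slc10a2 and Fabp6.

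Most of the transcriptome differed between the tissues. Of 12266 genes, 8364 were called (68.2%), 4397 higher in small intestine (35.8%) and 3967 higher in large intestine (32.3%). The stricter call of more than 2-fold left 1129 genes for small intestine (9.2%) and 820 for large intestine (6.69%). All 6 libraries of small intestine lay above all 6 of large intestine for 3117 genes (25.4%), and the opposite held for 2633 (21.5%), so that 5750 genes (46.9%) did not overlap. A gene whose mean reached 1 FPKM in only 1 tissue could hardly have the higher level in the other. This held for 1425 of the 12266 genes, 541 through small intestine and 884 through large intestine, and of the 10841 that reached it in both tissues 3912 were higher in small and 3179 in large intestine. The median difference over all genes was 0.02. FPKM is a share of a library, so very abundant transcripts lower the values of the rest. The deposited values summed to 866950 to 1010521 FPKM in small intestine and 555835 to 626611 in large intestine, and quantile normalization, which removes that difference, changed the counts to 3668 and 4565.

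**Figure D2:**
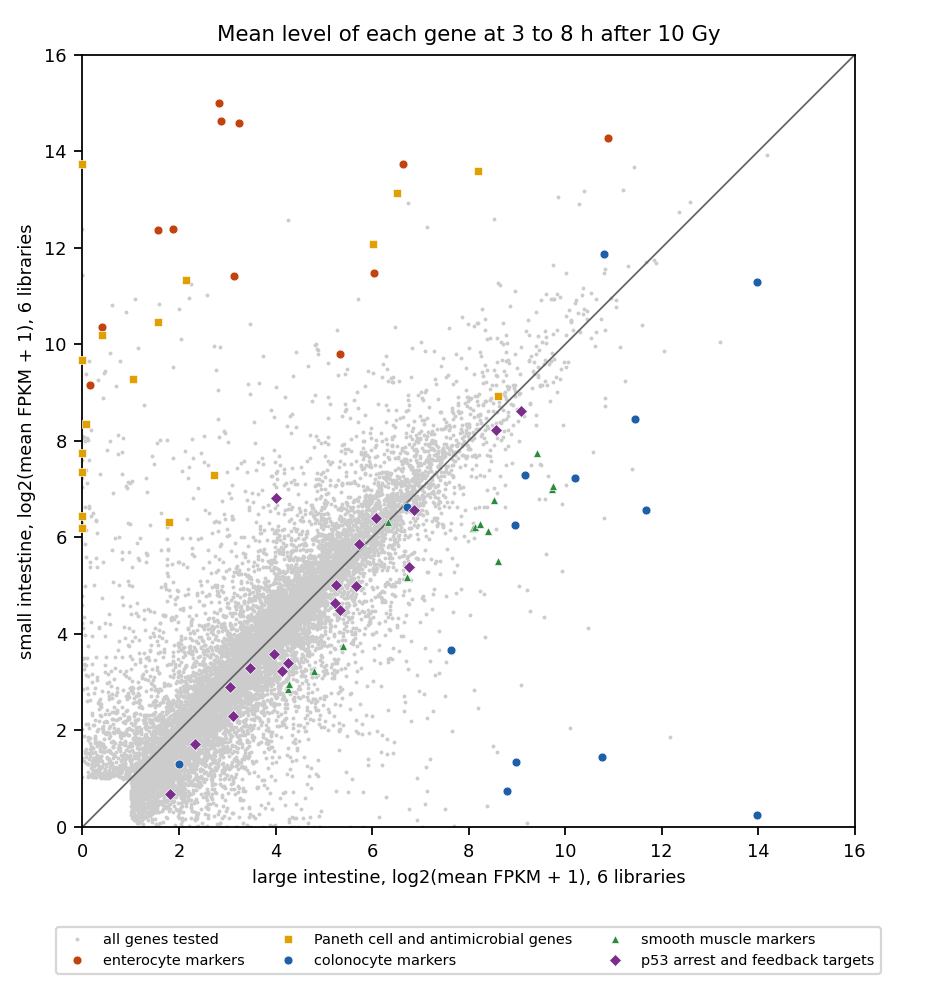
Mean FPKM plus 1 of each gene over 6 libraries on log2 axes, large intestine horizontally and small intestine vertically, with the line of equal level. Enterocyte and Paneth cell genes lie far above the line, colonocyte and smooth muscle markers mostly below it, and p53 targets near it.

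The 12 genes with the largest differences in each direction were taken from called genes whose libraries did not overlap, so their separation is part of that choice and their values are given as a description. The largest differences in favour of small intestine belonged to genes of fat transport, to antimicrobial peptides and to brush border enzymes. Apoa1, the main protein of high-density lipoprotein (chromosome 9, 46228630 to 46230469, GRCm38.p6), ranged over 29155 to 35022 FPKM in small intestine (median 33030.1) and 0 to 17.6 in large intestine (median 1.28). The difference was 13.11 ± 0.63 (adjusted p = 1.99e-10). Apoa4, a chylomicron protein secreted after fat meals, ranged over 20161 to 29674 FPKM in small intestine (median 24351) and 0 to 19.3 in large intestine (median 0.521), and Apoc3, an inhibitor of triglyceride clearance, over 4198 to 6306 FPKM in small intestine (median 5042) and 0 to 7.2 in large intestine (median 0.754). Fabp1, a fatty acid binding protein, was measured at 20686 to 29477 FPKM in small intestine (median 24292) and 2.34 to 15.7 in large intestine (median 7.36), a difference of 11.64 ± 0.38 (adjusted p = 3.17e-12). The aminopeptidase gene Anpep was measured at 4597 to 6534 FPKM in small intestine (median 5115) and 0.789 to 4.05 in large intestine (median 3.1), and the lactase gene Lct at 1116 to 1520.1 FPKM in small intestine (median 1296) and 0.0326 to 0.987 in large intestine (median 0.061). The differences were 10.58 ± 0.23 and 9.99 ± 0.17.

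Defa24, an alpha-defensin of Paneth cells on chromosome 8, ranged over 9075 to 19287 FPKM in small intestine and was listed at 0 in all 6 large intestine libraries. Gm15284 (RefSeq name Defa30), AY761184 and Gm14851 (RefSeq name Defa38) were likewise listed at 0 in large intestine, with medians of 5285, 2856 and 2756 FPKM in small intestine. Alpha-defensins are a family of near-identical copies, so how fragments were divided among the copies is uncertain. The other genes among the 12 highest were Adh6a, an alcohol dehydrogenase, with medians of 1332 and 0.124 FPKM in small and large intestine, and 2010106E10Rik, with 1802 and 0.368.

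In favour of large intestine the largest difference was that of Car1, carbonic anhydrase 1 (chromosome 3, 14766214 to 14808365), which helps colonic cells exchange salt and bicarbonate. It was measured at 4781 to 29903 FPKM in large intestine (median 16313) and 0 to 0.916 in small intestine (median 0). The lowest large intestine library was that of 7 h, and the difference was -13.57 ± 0.34 (adjusted p = 1.69e-13). Saa1, an acute phase protein that colonic epithelium also makes, was measured at 730.1 to 3627 FPKM in large intestine (median 1379.8) and 0 to 8.4 in small intestine (median 0.291). Slc6a14, an amino acid transporter, was measured at 504 to 748 FPKM in large intestine (median 579) and 0 to 0.162 in small intestine (median 0.0366). Aqp8, a water channel, was measured at 35.3 to 1071 FPKM in large intestine (median 383) and 0 to 1.9 in small intestine (median 0.417). Its large intestine value was lowest at 8 h.

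Retnlb, an antimicrobial product of goblet cells, had medians of 0.265 and 159.8 FPKM in small and large intestine. The medians were 2.46 and 1065 for 2610528A11Rik, which RefSeq also lists as Gpr15l, the gene of a ligand for the lymphocyte receptor GPR15. Hao2, a peroxisomal oxidase, had 0 and 211, the glycosyltransferase Mgat4c 1.44 and 368, the granule protein Sycn 1.4 and 329, and Fa2h, which hydroxylates fatty acids of sphingolipids, 0.0671 and 120.1. Cyp2d34 was listed at 0 in all small intestine libraries and had a median of 119 FPKM in large intestine, and 1810065E05Rik had medians of 2.64 and 4516.

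**Figure D3:**
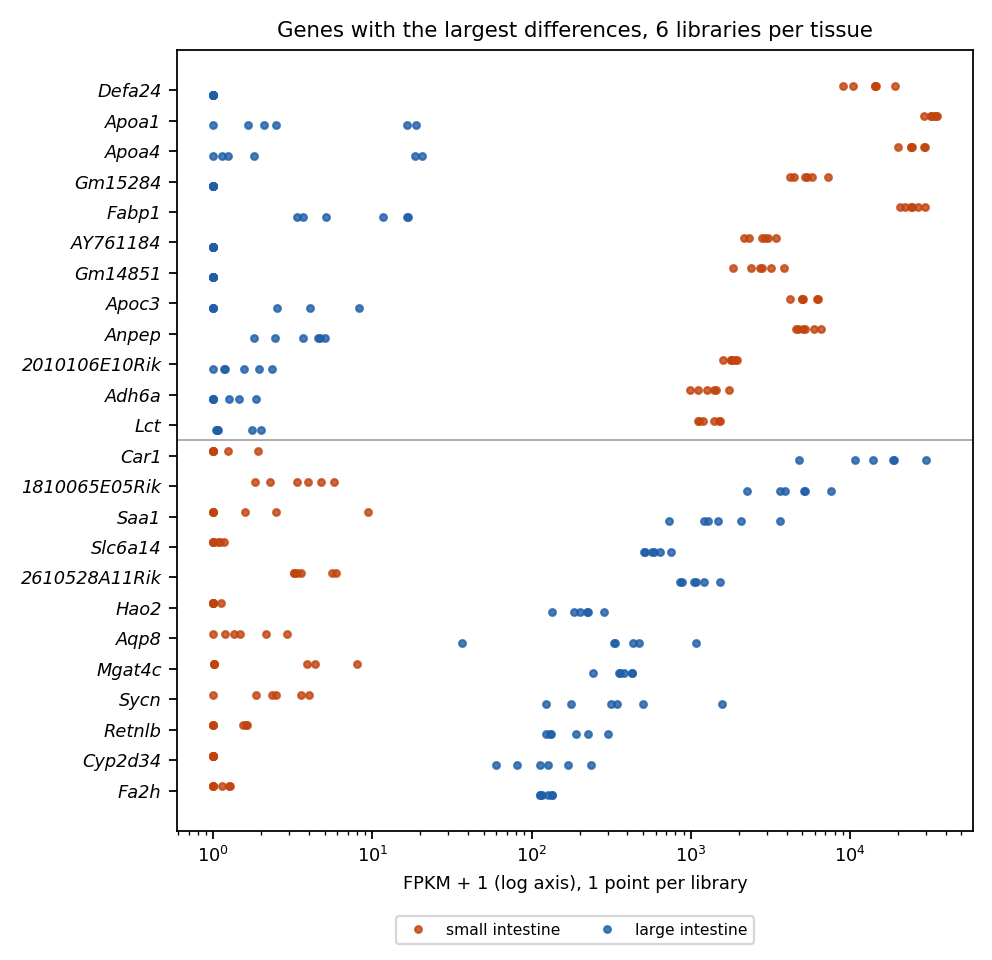
FPKM plus 1 on a log axis for the 12 genes with the largest differences in each direction, 1 point per library, 6 libraries per tissue. The genes were ranked among those whose libraries did not overlap, so the gap between the point clouds is part of their choice and the plot shows its size.

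Digestive and absorptive genes were higher in small intestine almost throughout. Among 16 brush border hydrolases, 15 were higher in small intestine, all by the stricter call (12 of the 13 that reached 1 FPKM in both tissues), and the list median was 6.01. Sucrase-isomaltase, Sis, was measured at 2424 to 3317 FPKM in small intestine (median 2564) and 0.777 to 19.3 in large intestine (median 6.67). Its ranges did not overlap and the difference was 8.70 ± 0.45 (adjusted p = 4.46e-10). Treh, which splits trehalose, had medians of 716 and 0.221 FPKM in small and large intestine, and intestinal alkaline phosphatase, Alpi, 919.7 and 34.7. Of these 3 enzymes Alpi had the highest level in large intestine. The exception was the metalloprotease Mep1a, measured at 483 to 813 FPKM in large intestine (median 717) and 219.8 to 443 in small intestine (median 314) and called higher there (-1.08 ± 0.16, adjusted p = 3.32e-05), while its partner subunit Mep1b was higher in small intestine (2.74 ± 0.15).

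Genes for fat uptake and chylomicron assembly were higher in small intestine in 18 of 20 cases, with a list median of 5.69. Of the 19 that reached 1 FPKM in both tissues 17 were, and of all genes 35.8% were. Mttp, which loads lipid onto apolipoprotein B, ranged over 1761 to 2159 FPKM in small intestine and had medians of 2000.0 and 1.11. The ranges lay far apart, with a difference of 9.88 ± 0.12 (adjusted p = 7.76e-17). Apob itself had medians of 1272 and 37.4 FPKM, the cholesterol transporter Npc1l1 560.4 and 0.492, and Mogat2, which rebuilds triglyceride, 519 and 6.11. Fabp2 was abundant in both tissues, at 16834 to 26961 FPKM in small intestine (median 18581) and 1381 to 2531 in large intestine (median 1962), and still differed by 3.38 ± 0.17. Scarb1, a lipoprotein receptor, was higher in large intestine (-1.01 ± 0.19), and Plin2, a lipid droplet protein, did not pass the test (-0.14 ± 0.15, adjusted p = 0.414) but was called higher in large intestine with quantile normalization (-0.57, adjusted p = 0.00326).

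Of 14 tested sugar, peptide and amino acid transporters 14 were higher in small intestine, 12 of them by more than 2-fold and 2 of them at a mean below 1 FPKM in large intestine, with a list median of 5.42. Slc5a1, the sodium-glucose transporter SGLT1, was measured at 2211 to 3517 FPKM in small intestine (median 2836) and 51.3 to 84.6 in large intestine (median 62.1). Slc2a2, the basolateral glucose transporter GLUT2, was measured at 485 to 693 FPKM in small intestine (median 567) and 0 to 0.553 in large intestine (median 0.036), and the fructose transporter Slc2a5 had medians of 168 and 2.86 FPKM. No range of these 3 sugar transporters overlapped, and Slc2a2 reached a mean of 1 FPKM in small intestine alone. The peptide transporter Slc15a1 had medians of 939 and 23.4 FPKM and the neutral amino acid transporter Slc6a19 of 979 and 0.878. The smallest difference of the list was that of Slc1a1, an acidic amino acid transporter (0.43 ± 0.15, adjusted p = 0.0204), whose ranges overlapped and whose call was lost with median ratio scaling (0.35, adjusted p = 0.054).

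Among genes for vitamin and mineral uptake, 9 of 12 were higher in small intestine and 2 in large intestine, where 35.8% and 32.3% of all genes were. Of the 10 that reached 1 FPKM in both tissues 7 and 2 were. Rbp2, which carries retinol inside enterocytes, had medians of 14226 and 93.8 FPKM, the folate transporter Slc46a1 280.0 and 3.61, and Cubn, a receptor for vitamin B12 bound to intrinsic factor, 212 and 2.87. Bco1, which cleaves carotene, varied widely within small intestine, at 5.22 to 157 FPKM, and its lowest value, at 8 h, still exceeded large intestine. The iron exporter Slc40a1, ferroportin, went the other way. It was measured at 84.8 to 151 FPKM in large intestine (median 98.5) and 1.8 to 4.54 in small intestine (median 3.8), with no overlap and a difference of -4.61 ± 0.18 (adjusted p = 1.93e-11).

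Bile acid genes were split. Slc10a2, which takes up bile acids in the ileum, was measured at 15.5 to 276 FPKM in large intestine (median 131) and 1.05 to 8.45 in small intestine (median 2.64), and Fabp6, the ileal bile acid binding protein, at 4.76 to 47.9 FPKM in large intestine (median 20.8) and 0 to 0.971 in small intestine (median 0). Both ileal genes were higher in large intestine (-4.71 ± 0.58 and -3.80 ± 0.49), and Fabp6 was listed at 0 in 4 of 6 small intestine libraries. Without the 7 h library of large intestine the Slc10a2 difference was -5.25. Abcc2, an export pump for conjugates, had medians of 190.2 and 1.66 FPKM and was higher in small intestine. Which stretch of small intestine was sampled is not given, and its part in these values was not tested.

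The stretch just before the transcription start is shown for 5 of these genes, because the transcription factors HNF4 and CDX, which act throughout intestinal epithelium, recognise short motifs there. The sequences are the 250 bases before the RefSeq start (GRCm38.p6), read 5′ to 3′ on the gene's own strand. Capitals mark matches on either strand to an HNF4 motif, CAAAGTCCA, or a CDX motif, TTTATNG. Genes were chosen for display after their values were seen, among small intestinal genes whose window held a match.
Alpi (chr1:87101607-87101856, minus strand): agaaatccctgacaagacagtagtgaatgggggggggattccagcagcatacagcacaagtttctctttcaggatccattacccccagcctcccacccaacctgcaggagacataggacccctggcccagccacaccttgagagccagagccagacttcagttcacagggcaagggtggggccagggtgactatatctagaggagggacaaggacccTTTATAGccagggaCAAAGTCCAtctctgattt
Treh (chr9:44672983-44673232, plus strand): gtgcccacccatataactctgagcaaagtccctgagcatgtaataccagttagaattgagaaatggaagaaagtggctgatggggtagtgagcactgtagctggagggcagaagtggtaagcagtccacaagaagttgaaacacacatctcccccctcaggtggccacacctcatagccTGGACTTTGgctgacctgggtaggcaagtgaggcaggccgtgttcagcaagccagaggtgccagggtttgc
Cyp3a11 (chr5:145879855-145880104, minus strand): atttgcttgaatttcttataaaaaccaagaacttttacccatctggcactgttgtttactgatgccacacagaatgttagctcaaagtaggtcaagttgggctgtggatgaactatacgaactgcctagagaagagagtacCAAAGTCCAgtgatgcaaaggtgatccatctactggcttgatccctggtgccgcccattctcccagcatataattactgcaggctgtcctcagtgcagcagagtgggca
Fabp1 (chr6:71199629-71199878, plus strand): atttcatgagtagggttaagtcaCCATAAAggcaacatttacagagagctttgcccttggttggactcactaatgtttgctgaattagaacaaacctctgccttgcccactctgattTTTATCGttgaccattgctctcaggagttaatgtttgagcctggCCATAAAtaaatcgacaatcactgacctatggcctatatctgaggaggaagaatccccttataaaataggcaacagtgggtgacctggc
Sis (chr3:72967864-72968113, minus strand): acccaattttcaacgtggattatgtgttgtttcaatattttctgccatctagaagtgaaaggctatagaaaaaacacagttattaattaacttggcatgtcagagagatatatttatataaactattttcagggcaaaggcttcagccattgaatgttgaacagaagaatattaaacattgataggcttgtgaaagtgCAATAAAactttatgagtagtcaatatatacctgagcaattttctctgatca
Alpi held both motifs, with the HNF4 match beginning 19 bases before the start and the CDX match 33 bases before it. The HNF4 match began 71 bases before the start in Treh and 109 in Cyp3a11, and Sis held 1 CDX match and Fabp1 3. No match overlapped another in these windows.

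Across RefSeq windows of 300 bases, 250 before a start and 50 after it, the HNF4 motif was found in 2.05% of 1120 windows of genes higher in small intestine by more than 2-fold. It was found in 0.619% of 808 windows of genes higher in large intestine by that call, and in 0.501% of 11975 windows of all genes tested. A window was found for 845 of the 1129 genes, for 599 of the 820 and for 9377 of the 12266. The CDX motif was found in 10.6%, 8.79% and 7.06% of the same windows, and a GATA motif, AGATAAG, in 3.93%, 2.6% and 1.95%. In all 32851 windows of the table the shares were 0.475% for HNF4, 10.9% for CDX, 3.04% for GATA and 0.0609% for HNF1. A match describes letters in a window and is no measure of binding.

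Paneth cell and antimicrobial genes formed the list with the largest median after the enterocyte markers, 7.19, and 16 of 17 were higher in small intestine by more than 2-fold. The filter set the direction of 8 of them, which reached 1 FPKM in small intestine alone, and of the other 9 genes 8 were higher there. Lysozyme, Lyz1, was measured at 1851 to 3250.1 FPKM in small intestine (median 2655) and 2.0 to 7.11 in large intestine (median 2.9). The ranges were far apart, with a difference of 9.25 ± 0.22 (adjusted p = 7.05e-14). The lectin Itln1 had medians of 1378 and 1.76 FPKM and the defensin-processing protease Mmp7 of 169 and 4.1. Defa17, Defa21, Defa22, Defa26 and Defa3 were listed at 0 in every large intestine library, beside Defa24. Ang4, an antimicrobial ribonuclease, did not pass the test, at 311 to 664 FPKM in small intestine (median 452) and 128 to 842 in large intestine (median 257). Its difference was 0.64 ± 0.42 (adjusted p = 0.196), and it passed without the 5 h library of large intestine (0.93, adjusted p = 0.0405).

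The bactericidal lectin Reg3g varied within small intestine. It was measured at 8200.4 FPKM at 4 h and 9485 at 8 h, and at 1238 to 3739 in the other 4 libraries. Reg3b, its relative, was also highest in those libraries, at 20168 and 28995 FPKM. Even the lowest small intestine value of Reg3g exceeded the highest in large intestine, 132 FPKM, and the difference was 6.43 ± 0.85 (adjusted p = 1.12e-05).

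Enzymes that handle drugs and other foreign compounds were mostly higher in small intestine. Of 28 genes 19 were higher there and 5 in large intestine, where 35.8% and 32.3% of all genes were. Of the 25 that reached 1 FPKM in both tissues 17 and 4 were. Cyp3a11, a major drug-oxidising cytochrome whose promoter is printed above, was measured at 1081 to 2308 FPKM in small intestine (median 1513) and 0.209 to 2.45 in large intestine (median 0.679), a difference of 9.83 ± 0.25 (adjusted p = 1.65e-13) without overlap. Cyp2b10 had medians of 569 and 0.15 FPKM and the epoxide hydrolase Ephx2 of 993 and 27.3. Cyp2c55 showed the opposite pattern at 1555 to 5182 FPKM in large intestine (median 2810.4) and 26.5 to 156 in small intestine (median 85.4), and the sulfotransferase Sult1c2 had medians of 0.692 and 37.4 FPKM. Both were higher in large intestine (-5.21 ± 0.41 and -4.48 ± 0.13).

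Large intestine had the higher levels of ion and water transport genes, 15 of 21 (11 of the 14 that reached 1 FPKM in both tissues), with a list median of -1.57. Among carbonic anhydrases beside Car1, Car2 had medians of 49.6 and 725 FPKM in small and large intestine, and Car4 of 161 and 1067. Slc26a3, the chloride-bicarbonate exchanger, was measured at 308 to 1042 FPKM in large intestine (median 521) and 141 to 164 in small intestine (median 158), and Slc9a3, the sodium-proton exchanger NHE3, at 150.0 to 365 FPKM in large intestine (median 259.7) and 40.6 to 114 in small intestine (median 51.4). Neither overlapped, and the differences were -1.77 ± 0.22 and -2.08 ± 0.25. Subunits of the epithelial sodium channel followed, Scnn1a at medians of 6.36 and 63.3 FPKM and Scnn1b at 0 and 4.34. The 5 exceptions were the exchanger Slc26a6 (275 and 0.606), the water channels Aqp1 (298 and 20.9) and Aqp3 (45.4 and 0.0907), the chloride channel Cftr (50 and 28.8) and the sodium pump subunit Atp1b1 (1985 and 819.5).

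Mucus and goblet cell genes were higher in large intestine in 13 of 19 cases, all by more than 2-fold (10 of the 16 that reached 1 FPKM in both tissues). Muc2, the gel-forming mucin, was measured at 1214 to 1741 FPKM in large intestine (median 1639) and 182 to 263 in small intestine (median 212). The ranges did not overlap and the difference was -2.81 ± 0.12 (adjusted p = 5.46e-11). Agr2, which folds mucins, had medians of 587 and 2379.9 FPKM, the goblet cell transcription factor Spdef 9.51 and 45.5, the protease Klk1 77 and 1796 and Fut2, which fucosylates mucins, 0.558 and 77. Zg16 and Fcgbp did not pass the test (-0.23 ± 0.19 and 0.02 ± 0.14), and Zg16 passed with quantile normalization (-1.32, adjusted p = 6.8e-07). Tff3, Spink4 and Muc13 were called higher in small intestine by 0.40 ± 0.16, 0.58 ± 0.19 and 0.64 ± 0.16, and quantile normalization turned the direction of all 3. The Tff3 call was also lost when any 1 of 8 libraries was left out, with adjusted p between 0.0508 and 0.0805: the 3, 4, 5 and 8 h libraries of small intestine and the 3, 4, 6 and 8 h libraries of large intestine. St3gal4, a sialyltransferase, was higher in small intestine by 2.03 ± 0.19.

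Among 14 colonocyte markers, Lypd8, which keeps flagellated bacteria from the epithelium, was measured at 14273 to 20281 FPKM in large intestine (median 15773) and 1648 to 3377 in small intestine (median 2432), and Ceacam1, an adhesion molecule, at 2614 to 3031 FPKM in large intestine (median 2713) and 313 to 488 in small intestine (median 326). Both lay without overlap above small intestine (Lypd8 by -2.73 ± 0.18, Ceacam1 with adjusted p = 9.42e-12). Krt20, a keratin of differentiated epithelium, was the 1 marker higher in small intestine (1.06 ± 0.15), a call lost with quantile normalization (0.22, adjusted p = 0.0706), and without the 7 h library 2 markers were.

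Fuel and sterol metabolism showed smaller, mixed differences. Cpt1a, which admits fatty acids into mitochondria, was higher in large intestine (33.9 and 105 FPKM, -1.70 ± 0.09). Of all 18 fatty acid oxidation genes 9 were higher in small intestine and 3 in large intestine, the median was 0.18, and under quantile normalization it was -0.18. Cholesterol synthesis genes were higher in large intestine in 14 of 20 cases, with a median of -0.96. Sqle, squalene epoxidase, was measured at 50.5 to 77 FPKM in large intestine (median 64.5) and 12.1 to 31.3 in small intestine (median 17.6) without overlap, and genes higher in small intestine included Stard4 and Sc5d, by 0.51 and 1.08. The Stard4 call was lost with quantile normalization (0.09, adjusted p = 0.513).

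Transcription factors of gut position gave no single direction, with 9 of 21 higher in small intestine and 6 in large intestine. Of the 18 that reached 1 FPKM in both tissues 7 and 5 were, and of all genes 35.8% and 32.3% were. With quantile normalization the counts were 9 and 10 of 21. The GATA factors of the foregut and upper intestine were higher in small intestine: Gata4 was measured at 59.5 to 72.3 FPKM in small intestine (median 62) and 0.562 to 0.884 in large intestine (median 0.652), Gata5 at medians of 49.4 and 1.39 FPKM and Gata6 at 69.1 and 14.9. The Gata4 ranges were far apart, with a difference of 5.25 ± 0.08. Gata4 reached a mean of 1 FPKM in small intestine alone, so the filter set its direction and its values are a description. Hnf4g, a nuclear receptor of enterocytes, was measured at 305 to 454 FPKM in small intestine (median 355) and 9.67 to 17.4 in large intestine (median 15) (4.53 ± 0.14), whereas its relative Hnf4a had medians of 261 and 302 FPKM and did not pass the test (-0.17 ± 0.11, adjusted p = 0.175). Creb3l3, a regulator of lipid metabolism genes, had medians of 587 and 10.7 FPKM. Foxd2 was higher in large intestine, at medians of 0.0982 and 17.2 FPKM. Atoh1, which directs cells to secretory fates, and Sox9, of crypt progenitors, were also higher in large intestine (-2.07 ± 0.11 and -1.44 ± 0.16). Cdx2, the master regulator of intestinal identity, had medians of 94.3 and 115 FPKM and did not pass the test (-0.25 ± 0.12, adjusted p = 0.0746). With quantile normalization both Hnf4a and Cdx2 were called higher in large intestine (-0.80, adjusted p = 7.02e-06 and -0.74, adjusted p = 3.14e-05). They were also called with median ratio scaling (-0.26, adjusted p = 0.0361 and -0.34, adjusted p = 0.0164) and without the 4 h library of small intestine (-0.25, adjusted p = 0.0212 and -0.34, adjusted p = 0.00552), and Cdx2 also without the 3 h library of large intestine (-0.31, adjusted p = 0.0318).

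Hox genes mark position along the body axis. Of 36 listed, 17 reached a mean of 1 FPKM, each of them in large intestine alone, so the filter fixed their direction and their values are a description. Hoxb9 was measured at 22.4 to 33.3 FPKM in large intestine and listed at 0 in all 6 small intestine libraries. Hoxa10, Hoxa13 and Hoxb13 were likewise at 0 throughout small intestine, with large intestine ranges of 10.9 to 27.2, 3.52 to 25.6 and 0.46 to 87.1 FPKM. Of the anterior members, Hoxa5 had medians of 0.963 and 9.26 FPKM in small and large intestine and Hoxb5 of 0.801 and 7.25. Hoxb13 and Hoxa13 were both highest in the 7 h library and varied widely among large intestine libraries, while Hoxb9 varied little and was lowest at 7 h. Without the 7 h library the Hoxb13 difference was -2.29.

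Hormone genes of enteroendocrine cells divided by hormone, with 6 of 17 higher in each tissue, close to the 35.8% and 32.3% of all genes. Gip, the glucose-dependent incretin, was measured at 242 to 282 FPKM in small intestine (median 263) and 0 to 0.435 in large intestine (median 0), and Cck, which empties the gall bladder, had medians of 63.3 and 4.0 FPKM. Pyy, a satiety peptide of the lower gut, was measured at 58.3 to 201 FPKM in large intestine (median 86.4) and 1.01 to 9.96 in small intestine (median 3.3), and Gcg, which encodes GLP-1, had medians of 24.2 and 72.8. None of these 4 overlapped between tissues, where 46.9% of all genes did not. Gip reached a mean of 1 FPKM in small intestine alone, so the filter set its direction. The pan-endocrine gene Chga did not pass the test (68.5 and 96.1 FPKM, -0.38 ± 0.18, adjusted p = 0.075), but passed as higher in large intestine without the 7 h library there (-0.56), with quantile normalization (-0.82, adjusted p = 0.002) and with median ratio scaling (-0.47, adjusted p = 0.0301). Insl5 did not pass either (-1.70 ± 0.97, adjusted p = 0.131) and passed with a smaller difference without that library (-0.58). With a pseudocount of 0.1 Insl5 passed with a larger difference (-3.81, adjusted p = 0.0148). Without the 7 h library 9 hormone list genes were higher in large intestine in place of 6. Of 8 tuft cell genes 1 was called, where 68.2% of all genes were, and that call was lost with quantile normalization.

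Genes of the crypt base gave no single direction, with 5 of 14 higher in small intestine and 7 in large intestine (3 and 6 of the 9 that reached 1 FPKM in both tissues). Of all genes 35.8% and 32.3% were. Olfm4, a marker of small intestinal stem cells in mice, was measured at 59.4 to 119 FPKM in small intestine (median 103) and 0 to 0.197 in large intestine (median 0), a difference of 6.56 ± 0.14. Olfm4 reached a mean of 1 FPKM in small intestine alone, so the filter set its direction. Prom1 was measured at 287 to 353 FPKM in large intestine (median 329) and 8.41 to 19.3 in small intestine (median 14.5), with no overlap and a difference of -4.47 ± 0.17. Lgr5, the Wnt-responsive stem cell receptor, was low, at 0.742 to 1.83 FPKM in small intestine (median 1.24) and 0.188 to 1.02 in large intestine (median 0.752), and differed by 0.45 ± 0.16 (adjusted p = 0.0208) with overlapping ranges. The Wnt target Axin2 was higher in small intestine (0.89 ± 0.17) and the receptors Ephb2 and Ephb3 in large intestine (-0.93 ± 0.11 and -1.26 ± 0.12).

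Cells outside the epithelium also left different traces. Of 15 smooth muscle markers 14 were higher in large intestine, with a median of -1.76, and the summed level ranged over 3111 to 6966 FPKM there and 637 to 1535 in small intestine. Cnn1, calponin, was measured at 243 to 650.3 FPKM in large intestine (median 371) and 25.3 to 65.4 in small intestine (median 43), and Myh11, smooth muscle myosin, at 158 to 389 FPKM in large intestine (median 258) and 39.7 to 99 in small intestine (median 75.7). Of 12 tested enteric neuron and glia markers 12 were higher in large intestine (8 of the 8 that reached 1 FPKM in both tissues), among them Uchl1 at medians of 3.23 and 29.3 FPKM and neuronal nitric oxide synthase, Nos1, at 0.267 and 4.03. Kit, of pacemaker cells, had medians of 2.54 and 20.6 FPKM. Of 9 adipocyte markers 8 were higher in large intestine (6 of the 7 that reached 1 FPKM in both tissues). Adipoq had medians of 7.24 and 84.5 FPKM, and the remaining marker, Cidec, was higher in small intestine (1.78 ± 0.22). Fibroblast and matrix genes were higher in large intestine in 10 of 14 cases (8 of the 12 that reached 1 FPKM in both tissues). Fbln1 was the 1 gene higher in small intestine (166 and 6.71 FPKM, 4.42 ± 0.17). In whole tissue, fewer cells of a type and less RNA per cell cannot be told apart. None of the tested markers of these lists was at 0 throughout either tissue, and the part of these cells in other differences, such as that of the Hox genes, was not tested. Of 8 endothelial markers 2 were higher in large intestine, where 32.3% of all genes were. Of the 6 that reached 1 FPKM in both tissues 1 was. Of 4 pacemaker cell markers 3 were higher in large intestine, and of the 2 that reached 1 FPKM in both tissues 2 were. Few genes of pancreas, skin or liver could be tested, 2, 4 and 3. Of these 1 each was higher in small intestine (Clps, Ly6d and Cps1, a urea cycle enzyme that enterocytes also make), and 1, 2 and 1 were higher in large intestine. Of each kind 2 reached 1 FPKM in both tissues. Among those, 1, 1 and 0 were higher in small intestine and 1 each in large intestine.

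Immune markers went the other way. Of 15 tested genes of T cells and intraepithelial lymphocytes 15 were higher in small intestine, 12 by more than 2-fold. The filter set the direction of 9, which reached 1 FPKM in small intestine alone, and of the 6 that reached it in both tissues 6 were higher there. The summed level of the list ranged over 375 to 884 FPKM there and 6.07 to 32.3 in large intestine. Gzma, a granule protease of cytotoxic cells, was measured at 142 to 346 FPKM in small intestine (median 264) and 0 to 6.54 in large intestine (median 1.15). The ranges did not overlap, with a difference of 6.69 ± 0.39 (adjusted p = 1.7e-09). The T cell receptor component Cd3g had medians of 24.4 and 1.18 FPKM, Cd8a 14.2 and 0.317 and the chemokine Ccl5 232 and 4.63. Of 15 myeloid genes 12 were higher in small intestine (10 of the 12 that reached 1 FPKM in both tissues), including the macrophage genes C1qa (76.3 and 16) and Csf1r (16.1 and 2.69).

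Antigen presentation genes of MHC class II, carried by myeloid cells, B cells and small intestinal epithelium, were higher in small intestine in 9 of 10 cases (7 of the 8 that reached 1 FPKM in both tissues). Cd74, the invariant chain, was measured at 254 to 1260.0 FPKM in small intestine (median 544) and 31.5 to 53.9 in large intestine (median 41.4) (3.77 ± 0.31, adjusted p = 7.48e-08), and Ciita, the regulator of the pathway, had medians of 1.4 and 0.183 FPKM. Ctss did not pass the test (-0.09 ± 0.12), and passed as higher in large intestine without the 4 h library there (-0.19, adjusted p = 0.0472) and with quantile normalization (-0.79, adjusted p = 0.000143). The antibody joining chain Jchain of plasma cells had medians of 268 and 46 FPKM. Of 7 plasma cell genes 6 were higher in small intestine (4 of the 5 that reached 1 FPKM in both tissues). Only 1 of 15 B cell markers was abundant enough to test, and it did not pass (Spib, -0.19 ± 0.13).

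Sensors of bacteria and oxidase genes were mostly higher in large intestine, 13 of 21 (9 of the 15 that reached 1 FPKM in both tissues). Tlr2 was measured at 12.7 to 24.3 FPKM in large intestine (median 21.9) and 0.16 to 0.792 in small intestine (median 0.363) (-3.93 ± 0.16), and Tlr1 had medians of 1.55 and 28.5 FPKM in small and large intestine. The medians were 0.294 and 10.1 for Tlr4, which senses endotoxin, and 0.203 and 4.57 for Tlr5, which senses flagellin. None of these 4 overlapped, where 46.9% of all genes did not. Tlr2 was among 4 genes of the list that reached a mean of 1 FPKM in large intestine alone, so the filter set its direction. The medians of Tlr4 and Tlr5 in small intestine also lay below 1 FPKM. The hydrogen peroxide producer Duox2 was measured at 13.8 to 33.8 FPKM in large intestine (median 26.9) and 0.758 to 21.6 in small intestine (median 2.6) and was higher in large intestine (-2.69 ± 0.48). Its ranges overlapped, since the small intestine library at 4 h lay above the large intestine library at 7 h. Pigr, which carries antibodies into the lumen, was higher in small intestine (1838 and 697 FPKM, 1.34 ± 0.21). Of 23 interferon-stimulated genes 13 were higher in small intestine and 2 in large intestine, with Ddx58 at medians of 32.6 and 8.25 FPKM and Oas3 at 26.4 and 6.67 the 2 that passed the stricter call. Of the 22 that reached 1 FPKM in both tissues 13 and 2 were higher in small and large intestine, where 35.8% and 32.3% of all genes were.

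**Figure D4:**
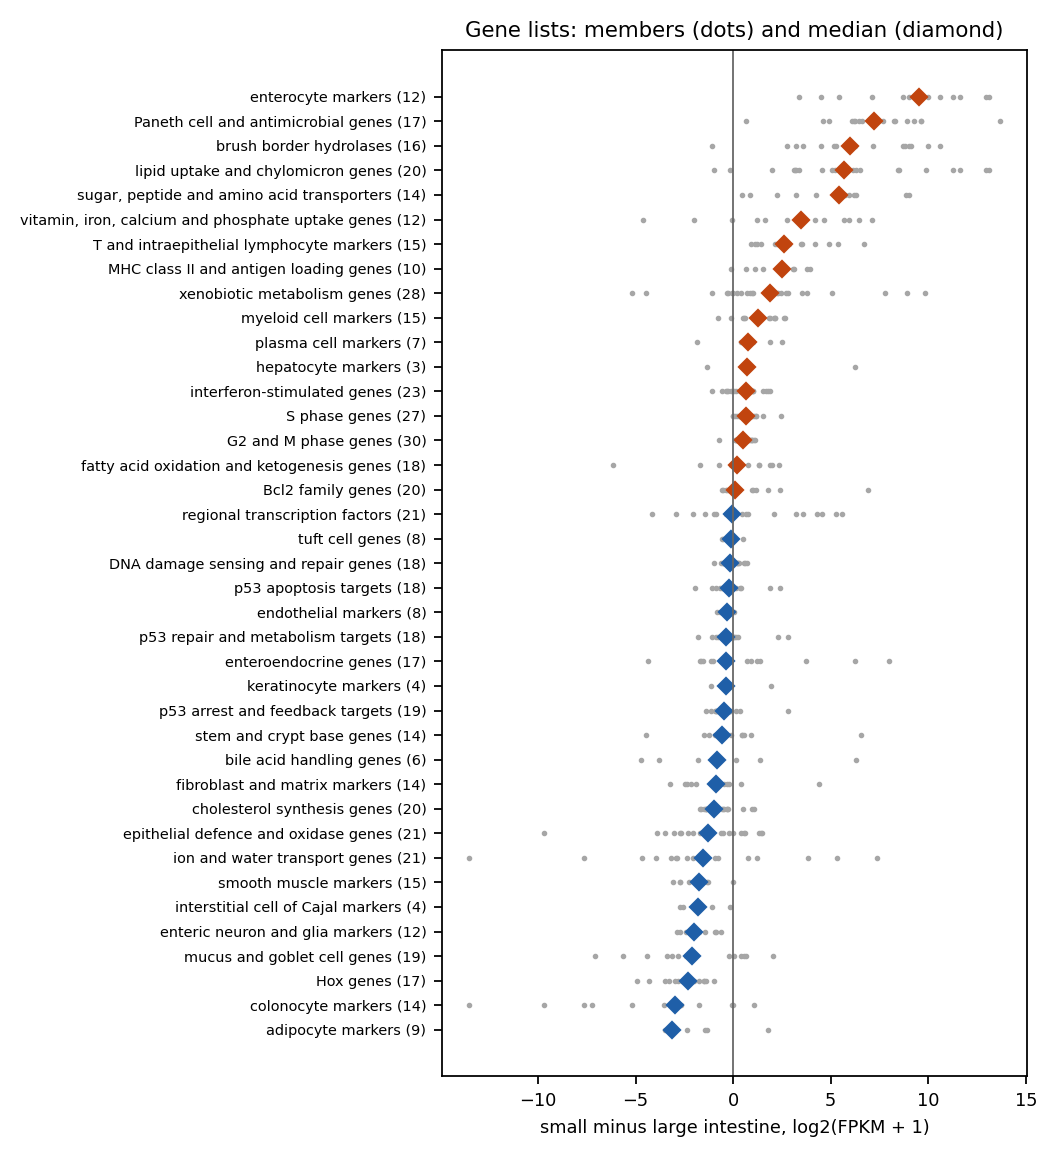
Difference of each gene (grey dots) and list median (diamonds, orange above 0 and blue below) on the log2(FPKM + 1) scale, small minus large intestine, for 39 gene lists with at least 3 tested genes, whose number follows the name. Lists run from enterocyte markers at the top to adipocyte markers at the bottom, and the medians of the fatty acid oxidation, Bcl2 family and tuft cell lists changed sign under quantile normalization.

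Targets of p53 differed between the irradiated tissues about as often as other genes did, mostly with the higher level in large intestine and mostly by less than 2-fold. Of 52 tested targets on the 3 lists, 30 were higher in large intestine, where 32.3% of all genes were, and 7 in small intestine, where 35.8% were. By role, the counts in large and small intestine were 13 and 1 of 19 arrest and feedback targets, 8 and 4 of 18 apoptosis targets, and 10 and 3 of 18 repair and metabolism targets, with some genes on more than 1 list. The median difference was -0.36 at 3 to 8 h and -0.22 in the unirradiated libraries at 0 h. The stricter 2-fold call kept 3 targets higher in large intestine and 4 in small intestine. Without the 7 h library the counts were 30 and 5, and with quantile normalization 34 and 6.

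Cdkn1a, the gene of the arrest protein p21, was measured at 325 to 517 FPKM in small intestine (median 344) and 352 to 716 in large intestine (median 512). The ranges overlapped, and the difference was -0.46 ± 0.18 (adjusted p = 0.0349). That call was lost when any 1 of 7 libraries was left out (3 h, 5 h or 7 h of large intestine, or 5 h, 6 h, 7 h or 8 h of small intestine), with adjusted p between 0.0577 and 0.0815. Ccng1, cyclin G1, was measured at 349 to 425 FPKM in large intestine (median 372) and 262 to 340.3 in small intestine (median 292), without overlap and with a difference of -0.36 ± 0.08 (adjusted p = 0.00119). That call was lost when the libraries of 1 and 2 h were added (-0.36, adjusted p = 0.191). Trp53inp1, a stress protein that acts with p53, and Phlda3, an inhibitor of Akt, were higher in large intestine (-1.39 ± 0.11 and -0.89 ± 0.21). Mdm2, the ligase that degrades p53, and Bax, which permeabilises mitochondria, did not pass the test (0.15 ± 0.11 and -0.12 ± 0.08, adjusted p = 0.26 and 0.179). Mdm2 passed without the 3 h library of large intestine (0.25, adjusted p = 0.0123) and Bax with quantile normalization (-0.67, adjusted p = 3.85e-05) and with median ratio scaling (-0.22, adjusted p = 0.0294). Trp53 itself had medians of 15.5 and 15.2 FPKM (-0.03 ± 0.11, adjusted p = 0.828).

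A few death and stress genes were well apart after irradiation, and the single libraries at 0 h showed the same order. Sesn1, a sestrin that restrains growth signalling, was measured at 85.7 to 158 FPKM in small intestine (median 108) and 11.7 to 21.8 in large intestine (median 12.9) (2.82 ± 0.16, adjusted p = 1.61e-09), and at 137 and 12.4 FPKM in the tissues at 0 h. Pmaip1, which encodes the death protein NOXA, was measured at 67.8 to 284 FPKM in small intestine (median 109.9) and 17.5 to 30.2 in large intestine (median 22.9), with its highest value at 4 h, and at 56.5 and 6.74 FPKM at 0 h. Apaf1, the core of the apoptosome, was measured at 28.1 to 37 FPKM in small intestine (median 29.5) and 5.91 to 9.7 in large intestine (median 7.7), and at 30 and 3.36 at 0 h. None of these 3 overlapped, where 46.9% of all genes did not. Sco2, an assembly factor of the respiratory chain, had medians of 25.3 and 4.12 FPKM (2.32 ± 0.29). In the other direction the receptor gene Eda2r had medians of 8.63 and 19.1 FPKM (-1.07 ± 0.10), Trp53i11 3.99 and 15.6 and the kinase subunit Prkab1 23.4 and 79.9.

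**Figure D5:**
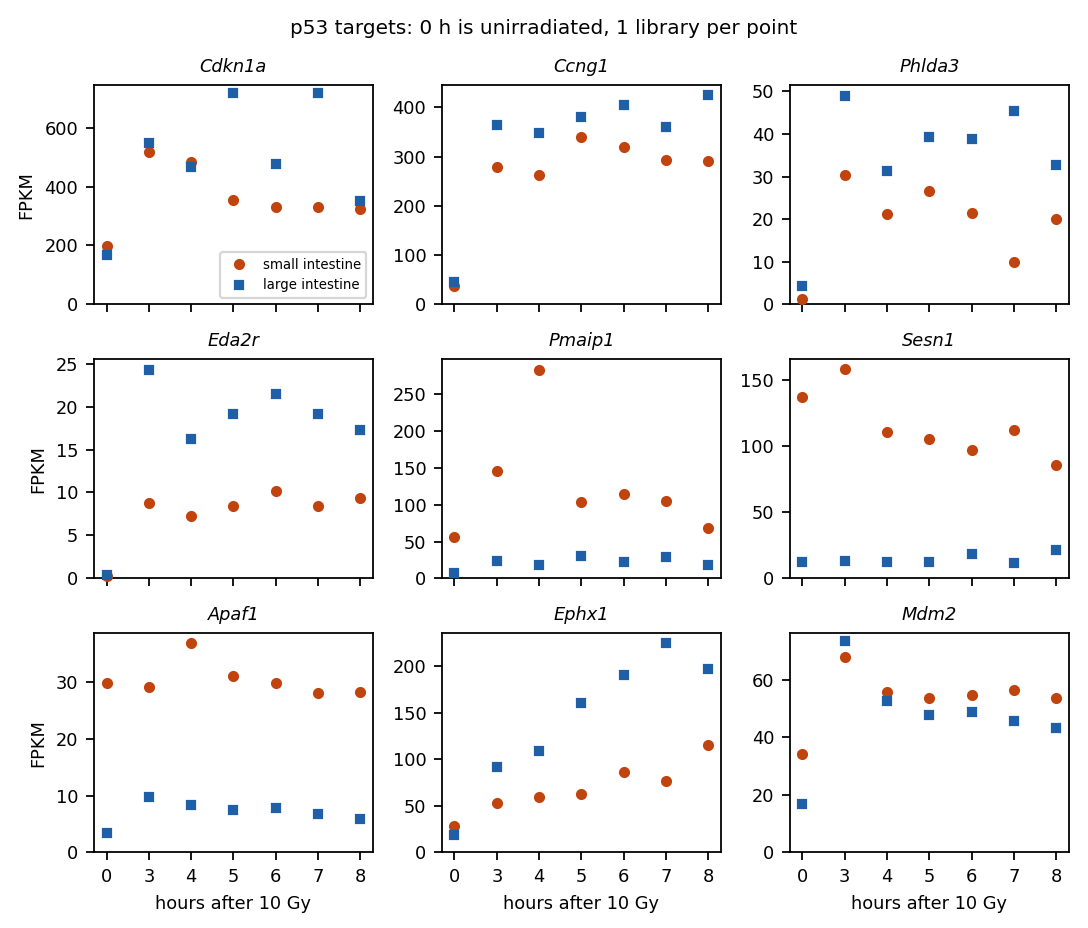
FPKM of 9 p53 targets (vertical axes, linear and starting at 0) against hours after 10 Gy as evenly spaced categories, circles for small intestine and squares for large intestine, 1 library per point, with 0 h unirradiated. Sesn1, Apaf1 and Pmaip1 lie higher in small intestine at every hour shown, and Eda2r, Phlda3 and Ccng1 higher in large intestine from 3 to 8 h.

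Genes that sense and repair DNA damage were higher in large intestine in 8 of 18 cases and in small intestine in 4, so 12 of 18 were called where 68.2% of all genes were. Quantile normalization gave 6 in each direction and moved the list median from -0.14 to -0.03. The kinase gene Atm, which signals double-strand breaks, was higher in large intestine (1.33 and 2.4 FPKM, -0.54 ± 0.12), as was the end-joining gene Xrcc5 (-0.99 ± 0.14).

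Of 20 Bcl2 family genes, 7 were higher in small intestine and 6 in large intestine, close to the 35.8% and 32.3% of all genes, and the list median of 0.09 fell on the other side of 0 with quantile normalization. Of the 18 that reached 1 FPKM in both tissues 5 and 6 were. Bcl2l15 was measured at 129.6 to 227 FPKM in small intestine (median 144) and 0 to 0.634 in large intestine (median 0.333), a difference of 6.93 ± 0.15. Bcl2l15 reached a mean of 1 FPKM in small intestine alone, so the filter set its direction. The survival gene Bcl2l1 was higher in small intestine (61.6 and 27 FPKM, 1.17 ± 0.12), as were the death genes Bak1 and Bad (0.95 ± 0.09 and 1.04 ± 0.10). Bcl2, a survival gene for which a role in colonic crypts is known, was measured at 1.12 to 2.1 FPKM in small intestine (median 1.65) and 1.06 to 2.07 in large intestine (median 1.43) and did not pass the test (0.08 ± 0.13, adjusted p = 0.578). Bbc3, which encodes PUMA, was higher in large intestine (4.34 and 6.49 FPKM, -0.58 ± 0.13).

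Genes of DNA replication were higher in small intestine after irradiation, by modest amounts. Of 27 S phase genes 20 were higher there, the other 7 did not pass the test, and the median difference was 0.63. Of the 26 that reached 1 FPKM in both tissues 20 were higher in small intestine, where 35.8% of all genes were. The replication licensing factor Cdt1 was measured at 9.26 to 11.8 FPKM in small intestine (median 9.84) and 1.95 to 4.51 in large intestine (median 2.89), and the clamp Pcna at 51.9 to 72.1 FPKM in small intestine (median 58.4) and 29.5 to 39.7 in large intestine (median 36.6). Neither overlapped, with differences of 1.53 ± 0.14 and 0.73 ± 0.09. Of the 27 genes 12 did not overlap between tissues, where 46.9% of all genes did not. Of 30 G2 and M phase genes 8 were higher in small intestine and 1, the mitotic kinase Plk1, in large intestine (-0.75 ± 0.23), and without the 7 h library 12 were higher in small intestine. The other 21 did not pass the test, and of all genes 35.8% and 32.3% were higher in small and large intestine. Of the 28 that reached 1 FPKM in both tissues 8 and 1 were. Cdk1, the kinase that drives mitosis, was measured at 4.69 to 19.5 FPKM in small intestine (median 11) and 2.77 to 10.5 in large intestine (median 5.21) (0.95 ± 0.31, adjusted p = 0.0144), with overlap.

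The order at 0 h was different for these genes. In the unirradiated libraries the S phase list had a median difference of -0.29, and it was 0.63 at 1 h, 0.03 at 2 h and 0.50 at 24 h. From 0 h to the mean of 3 to 8 h, 26 of 27 S phase genes were lower in large intestine, with a median change of -0.67, and 18 were higher in small intestine, with a median change of 0.19. Of all 12266 genes 6055 were lower in large intestine and 5715 higher in small intestine. The test of the difference between these changes gave an unadjusted p below 0.05 for 12 of the 27, all with the higher change in small intestine, where 10.4% of all genes had such a p. None of the 12 passed adjustment over all genes. Mcm5, a helicase subunit, stood at 4.52 FPKM at 0 h and 6.6 to 11.1 at 3 to 8 h in small intestine, and at 13.9 and 1.99 to 6.08 in large intestine, a difference in change of 2.20 ± 0.54 (adjusted p = 0.162). Each tissue had 1 library at 0 h, so that difference rests on single libraries. The 0 h library of large intestine also held the ileal gene Fabp6 and a keratinocyte marker sum of 46 FPKM, against at most 11.7 at 3 to 8 h. Its part in these changes was not tested.

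The G2 and M phase genes had a median change of 0.02 in small intestine and -0.66 in large intestine, where all 30 were lower than at 0 h, as were 6055 of all 12266 genes. No member gave an unadjusted p below 0.05 for the difference. Within the window, all 30 had a higher mean at 6 to 8 h than at 3 to 5 h in both tissues. The median changes were 1.03 in small intestine and 0.76 in large intestine. The summed level in small intestine was 111, 150 and 163 FPKM at 3, 4 and 5 h and 351, 245 and 393 at 6, 7 and 8 h. In large intestine it was 95.1, 53.1 and 143 FPKM and then 197, 238 and 112, so the 8 h library lay below that of 5 h. Over all genes the medians of the changes between these means were -0.02 and 0.01, and 5533 and 6340 of 12266 genes had the higher mean at 6 to 8 h.

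The change within the window differed between tissues in 2 of 12266 genes (0.0163%, limma, adjusted p below 0.05), and 664 (5.41%) had an unadjusted p below 0.05. Etv4, an ETS transcription factor, was listed at 3.4, 3.45 and 4.33 FPKM at 3, 4 and 5 h in large intestine and at 0.000642, 0.469 and 0.00466 at 6, 7 and 8 h. In small intestine it stayed below 0.01 FPKM, and the difference in change was 2.05 ± 0.24 (adjusted p = 0.014). That call was lost when any 1 of 7 libraries was left out, the 3, 5 and 7 h libraries of small intestine and the 4, 5, 6 and 8 h libraries of large intestine, with adjusted p between 0.0512 and 0.0674. With a pseudocount of 0.1 the call was also lost (difference in change 4.39, adjusted p = 0.883). Cutc, a copper-binding protein, was listed at 6.32 to 11.1 FPKM at 3 to 5 h in small intestine and near 0 at 6 to 8 h, while large intestine held 7.85 to 15.7 throughout. Cutc is among 122 tested genes that were listed below 0.05 FPKM in some libraries of a tissue whose median was at least 2 FPKM, and such genes were left out of the ranking of named genes. Etv4 is just outside that rule, with a large intestine median of 1.93 FPKM and its 6 and 8 h libraries there below 0.05 FPKM.

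The change from 0 h to 3 to 8 h differed in 8 genes (0.0652%), with 1280 (10.4%) at an unadjusted p below 0.05. In 6 of the 8 the difference rests on a single 0 h library that held the gene below 1 FPKM. Cpsf1 and Mro were listed at 0.0126 and 0.00124 FPKM in small intestine at 0 h, and Kbtbd4, 2810459M11Rik and Zbtb24 at 0.00178, 0.017 and 0.881 in large intestine. Ms4a10, of the MS4A membrane protein family, was listed at 0.284 FPKM at 0 h and 11.9 to 47 at 3 to 8 h in large intestine, and at 845 and 918 to 1131 in small intestine. Its call (difference in change -4.07 ± 0.67, adjusted p = 0.0495) was lost without any 1 of 8 libraries, each of small intestine and those of 5 and 6 h of large intestine, with adjusted p between 0.0613 and 0.101, and with no filter on low values (adjusted p = 0.0659). The kinase gene Ptk2b stood at 8.05 FPKM at 0 h and 27.2 to 37.7 at 3 to 8 h in large intestine, and at 24 and 20.4 to 25.3 in small intestine. Its difference in change was -1.92 ± 0.23 (adjusted p = 0.00268), and that of the chaperone Dnajb6 was -2.09 ± 0.27. Dnajb6 stood at 2.11 FPKM at 0 h in large intestine and 5.67 to 9.01 later.

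Responses of p53 targets to irradiation were not told apart between the tissues by this test. By limma 0 of 52 passed, and 9 had an unadjusted p below 0.05, where 10.4% of all genes had one. Of the 9, 8 had the lower change in small intestine, as did 772 of the 1280 over all genes. The median change from 0 h was 0.65 in small intestine, where 42 of 52 were higher, and 0.94 in large intestine, where 46 were. Of all 12266 genes 5715 and 6188 were higher than at 0 h, with median changes of -0.021 and 0.0034. Eda2r was listed at 0.261 and 0.444 FPKM at 0 h and differed in its change by -0.88 ± 0.28 (limma, adjusted p = 0.294). Apaf1 differed by -0.96 ± 0.28 (adjusted p = 0.261) and Ephx1, an epoxide hydrolase, by -1.60 ± 0.61 (adjusted p = 0.38). Of 14 colonocyte markers 11 were higher at 3 to 8 h than at 0 h in large intestine, with a median change of 1.22, against 0.01 in small intestine. The 0 h library of large intestine was the one with Fabp6 at 160.3 FPKM and a keratinocyte marker sum of 46, where the 6 later libraries held at most 11.7. Its part in these changes was not tested.

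Most tissue differences kept their direction in the libraries that the test did not use, less completely for small differences. Of the 4397 genes called higher in small intestine, 93.6% were higher there at 0 h, 92.6% at 1 h, 93.7% at 2 h and 96.2% at 24 h. Of the 3967 called higher in large intestine, 92.1%, 88.4%, 84.1% and 94% were higher there at the same hours. The lowest of these shares is that at 2 h. The large intestine library of that hour held small intestinal transcripts, and their part in this share was not tested. Of the 1129 genes higher in small intestine by more than 2-fold, 99.6%, 98.8%, 99.3% and 100% were higher at 0, 1, 2 and 24 h, and 95.8%, 91.7%, 53.9% and 98.5% were at least 2-fold higher. Of the 820 higher in large intestine by that call, 99.3%, 97.7%, 98.5% and 100% were higher there, and 89.4%, 80.7%, 63.2% and 94.3% were at least 2-fold higher. All 24 named genes kept their direction at these 4 hours. These are single libraries per tissue and hour, so the values carry no test.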

How the data were processed

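Per the labels' protocols, tissue kept in RNAlater was minced, RNA was extracted with Trizol, and unstranded TruSeq libraries were made from polyadenylated RNA. FPKM values were made by the authors with TopHat2 2.1.0 and Cufflinks 2.1.1 on the mm10 genome, per the submitters' processing notes. The deposited FPKM table held 13611 genes and 54 libraries. Read counts were not used here, so absolute depth is unknown and no counting interval is given. Steps among low FPKM values put the 12 libraries between 0.993 and 1.73 times the depth of the 3 h library of the same tissue.

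Genes with a mean of at least 1 FPKM over the 6 libraries of either tissue were tested with limma 3.58.1 (R 4.3.3) on log2(FPKM + 1), with a trended variance and Benjamini-Hochberg adjustment. A fold on that scale understates the change of low genes. Differences between tissues in a change were interaction terms, over the 12 libraries or, for the change from 0 h, with the 2 libraries at 0 h added. Named genes were the 12 highest and 12 lowest differences among called genes whose libraries did not overlap, and for the interactions the called genes. Members of 41 gene lists were also named. Genes and lists were chosen with earlier results of these data known. Positions and promoter windows came from RefSeq on GRCm38.p6, whose symbols matched 13027 of the 13611 genes. No 2 libraries were identical. Alternatives changed the pseudocount, filter, scaling, minimum fold, hours, block and single libraries.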

Additional observations from a re-analysis of the deposited data

Results flagged for a closer look

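Among the genes named above, 367 groups of 6 libraries had any spread, and in 33 of them 1 library stood away from the other 5 by more than Dixon's 95% critical share of the whole range on the log2(FPKM + 1) scale. Chance flags about 1 in 20 such groups. The large intestine library at 7 h accounted for 9 of the 33 and the small intestine library at 4 h for 7.

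In large intestine at 7 h, Insl5 (158 FPKM), Lypd8 (20281), Slc6a19 (3.36) and Slc2a2 (0.553) were high against the other libraries. In the same library Slc10a2 (15.5), Hnf4g (9.67), Mgat4c (241), Cidec (22.2) and Cpsf1 (8.23) were low. In small intestine at 4 h, 7 genes were high, all but Apaf1 epithelial genes: Ceacam1 (488 FPKM), Muc13 (3336), Slc9a3 (114), Duox2 (21.6), Cdx2 (139), Hnf4a (359) and Apaf1 (37).

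At 3 h Mdm2 was high in both tissues, with 67.8 FPKM in the small and 73.3 in the large. Fabp2 was high in small intestine at 3 h (26961). Olfm4 (59.4) and Phlda3 (9.95) were low in small intestine at 7 h, Slc40a1 (1.8) at 5 h, Treh (553) at 6 h and Ly6d (3.06) at 8 h. Aqp8 was low in large intestine at 8 h (35.3).

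The other flags concern low levels in the tissue with the lower values. Lyz1 stood at 7.11 FPKM in large intestine at 4 h and Treh at 1.2 at 8 h. Cyp2b10 and Olfm4 stood at 1.01 and 0.197 in large intestine at 3 h, and Gip at 0.435 at 6 h. In small intestine Car1 stood at 0.916 at 8 h, Hao2 at 0.115 at 5 h and Scnn1b at 0.0652 at 7 h.

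The change between hours differed between the tissues in 10 tests (limma, adjusted p below 0.05). From 3 to 5 h to 6 to 8 h, the change in small intestine minus that in large intestine was -3.47 ± 0.30 for Cutc and 2.05 ± 0.24 for Etv4 on the log2 scale. From 0 h to 3 to 8 h it was 3.67 ± 0.44 for Mro, 3.95 ± 0.28 for Cpsf1, -1.92 ± 0.23 for Ptk2b, -2.09 ± 0.27 for Dnajb6, -2.26 ± 0.33 for Zbtb24, -3.10 ± 0.31 for Kbtbd4, -3.70 ± 0.42 for 2810459M11Rik and -4.07 ± 0.67 for Ms4a10.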

How the results depend on the processing

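The tissue comparison called 8303 genes with a pseudocount of 0.1, 8826 of 13611 with no filter, 8233 with quantile normalization, 8380 with median ratio scaling, 8029 to 8227 without 1 library and 8364 as reported. A minimum difference of 2-fold left 1949, with 1129 higher in small intestine and 820 in large intestine. Quantile normalization moved the median of all genes by -0.099 and the share of calls higher in small intestine from 52.6% to 44.6%, and median ratio scaling moved them by -0.083 and to 46.2%. Of 602 genes followed, 475 were called, and 269 of these were called under every alternative, the 2-fold minimum included. Quantile normalization reversed 10 called genes, to -0.19 for Acadvl, -0.11 for Bdh1, -0.17 for Cpt2, -0.26 for Mcl1, -0.14 for Muc13, -0.019 for Nlrp6, -0.46 for Rps27l, -0.25 for Spink4, -1.04 for Tff3 and -0.14 for Xbp1. The cause was not tested beyond the shift given.

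The difference in the change within the window was called for 2 genes, for 1 with a mean of 1 FPKM required in both tissues, for 1 without genes listed near 0, for 3 with no filter, and for 1 to 10 without 1 library, the 10 without the small intestine library at 6 h. The difference in the change from 0 h was called for 8 genes, for 21 with a pseudocount of 0.1, for 13 with quantile normalization, for 12 with no filter, and for 7 to 30 without 1 library, the 30 without the large intestine library at 4 h and 22 without that at 8 h. The cause was not tested.

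The tissues share hours, but the labels do not say that those of an hour share a mouse. Deviations from the tissue means correlated between tissues at r = 0.057, 0.14, 0.11, 0.15, -0.044 and 0.073 for 3 to 8 h, so the hours were not taken as pairs. In 4 of 6 hours each library correlated best with that of its own hour. With the hour as a replicate block, 8340 genes were called between tissues, 0 for the change within the window (680 at an unadjusted p below 0.05 by limma) and 4 for the change from 0 h. The calls lost were Cutc and Etv4 within the window (adjusted p = 0.127 and 0.295), and Ptk2b, Zbtb24, Dnajb6 and Ms4a10 from 0 h (0.0614, 0.0614, 0.0946 and 0.102). Cdx2 was called between tissues with it (-0.25, adjusted p = 0.0197).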
